A study of Homo sapiens with 30 samples.

Results

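The data described here are the RNA levels of 10 genes that lie downstream of the receptor tyrosine kinase FLT3, measured in 30 libraries made from cell lines of acute myeloid leukemia (AML). The 10 genes are DUSP4, DUSP6, SPRY4, SPRED1, SPRED2, ETV5, EGR1, PIM1, CISH and SOCS2, and they were chosen by name as transcriptional outputs of MAPK and STAT5 signaling. They are 10 of 60675 gene IDs in the count table of the overexpression series and 10 of 58051 in that of the knockout series. All 10 passed the filter on low counts in both tables (17542 and 14490 genes tested), although SPRED1 passed in both series only through Molm-14, where it is high, and SPRY4 passed in the knockout series without the MV4-11 libraries.

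For the overexpression series, MV4-11 or Molm-14 cells were given the lentiviral vector pLenti-EF1α-GFP with sequence of the MIR1-2 host gene, which makes the miR-1 hairpin from the EF1α promoter (OE), or an empty vector (EV). For the knockout series, cells of MV4-11, Molm-14 or THP-1 were given lentiCRISPRv2 with a GFP marker, either with 1 guide against MPC1 (KO) or as an empty vector. MPC1 forms, with MPC2, the mitochondrial pyruvate carrier. Each of the 10 groups held 3 libraries, all EV and treated cells carried a vector, and no untransduced cells were analysed here. MV4-11 and Molm-14 carry an FLT3 internal tandem duplication (FLT3-ITD), whereas THP-1, a monocytic AML line, has wild-type FLT3.

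FLT3 with an internal tandem duplication signals without its ligand through RAS, RAF, MEK and ERK, and through the transcription factor STAT5. Both routes switch on genes whose products dampen the same signal. The phosphatases DUSP4 and DUSP6 remove the activating phosphates from ERK, and SPRY4, SPRED1 and SPRED2 restrain the pathway at the level of RAS and RAF. ETV5 and EGR1 are transcription factors induced by ERK. CISH and SOCS2 are STAT5 targets that dampen cytokine receptors, and PIM1 is a STAT5-induced kinase that promotes survival. RNA of these genes is often read as a sign of how active the pathways are, but no phosphorylation of ERK or STAT5 was measured in these files.

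The mature miR-1 made by the vector is shown first, with its seed (bases 2 to 8) in capitals, because it sets which of the 10 RNAs could pair with it. The sequence is from RefSeq (GRCh38.p14, the MIR1-2 locus on chromosome 18, 21829015 to 21829036, minus strand).
hsa-miR-1-3p: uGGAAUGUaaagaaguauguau
The 3′ UTRs of the canonical GENCODE transcripts were searched for the 8mer ACATTCCA and for its 7mers ACATTCC and CATTCCA. SPRED1 held an 8mer and a separate 7mer, SPRED2 and PIM1 each held a 7mer, and the other 7 genes held none. Of 19538 genes with a 3′ UTR, 4.82% held the 8mer and 19.92% held any of these matches. The matched sites follow in GRCh38, on the strand of the gene, with the match in capitals.
SPRED1, 8mer, chr15:38352257-38352286, plus strand: tatctactgtcACATTCCAtatattttgaa
SPRED1, 7mer, chr15:38353093-38353122, plus strand: gttctttaagaACATTCCcttagagggata
SPRED2, 7mer, chr2:65313340-65313369, minus strand: cctcgaggcacCATTCCAgccagggacgct
PIM1, 7mer, chr6:37174217-37174246, plus strand: catttacaactCATTCCAgatcccaggccc
A match is a stretch of letters and not a shown site of miR-1 action.

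For the STAT5 and ERK outputs, promoters of 300 bases around the RefSeq start site (250 before, 50 after) were searched on both strands for the STAT motif TTCNNNGAA and for the CArG box, the site of the ERK-responsive factor SRF. These motifs do not overlap each other in the promoters shown. RefSeq entries were at hand for DUSP6, SPRY4, SPRED1, SPRED2, EGR1, PIM1 and CISH. The CISH promoter held 4 STAT motifs, at 241, 230, 129 and 112 bases before the start, a number that 7 of 35116 promoters (0.0199%) reached. At least 1 STAT motif was in 7.66% of promoters. The EGR1 promoter held 2 CArG boxes, at 105 and 83 bases before the start, which 11 promoters (0.0313%) reached, and 1.29% held at least 1. EGR1 also held 1 STAT motif at 228 bases before the start, and neither motif was in the windows of the other 5 genes. The 250 bases before each start are shown for these 2 genes, with STAT motifs in capitals for CISH and CArG boxes in capitals for EGR1 (GRCh38.p14).
CISH, chr3:50611775-50612024, minus strand: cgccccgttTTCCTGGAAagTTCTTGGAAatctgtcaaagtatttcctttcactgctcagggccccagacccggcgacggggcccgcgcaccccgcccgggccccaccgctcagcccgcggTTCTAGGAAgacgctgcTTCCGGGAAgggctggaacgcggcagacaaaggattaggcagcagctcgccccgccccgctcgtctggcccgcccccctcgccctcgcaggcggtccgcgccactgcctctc
EGR1, chr5:138465229-138465478, plus strand: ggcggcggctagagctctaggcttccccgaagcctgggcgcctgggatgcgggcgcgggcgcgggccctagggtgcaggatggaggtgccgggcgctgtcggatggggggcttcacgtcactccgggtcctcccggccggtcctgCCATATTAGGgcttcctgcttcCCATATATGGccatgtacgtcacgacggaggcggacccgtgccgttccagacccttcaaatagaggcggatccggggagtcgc

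The libraries of the overexpression series held between 15543301 and 20939985 counts, and those of the knockout series between 5339360 and 9106478. Where 0 counts were seen, up to 3 are allowed by counting error alone, or 0.145 to 0.200 counts-per-million (CPM) in the first series and 0.338 to 0.544 CPM in the second. All KO libraries had less MPC1 RNA than the EV libraries of their line, with edgeR log2 fold changes of −1.18, −1.04 and −0.84 in MV4-11, Molm-14 and THP-1. MIR133A1HG, the host gene of MIR1-2, stood at 2.26 to 4.06 CPM in the 6 OE libraries and at 0 in the 6 EV libraries. Myeloid markers were present in every group. The 8 markers of T, B, erythroid, epithelial and fibroblast cells summed to at most 1.99 CPM in any library. In MV4-11 of the overexpression series, 6 interferon-induced genes (IFIT1, IFIT2, IFIT3, ISG15, MX1 and OAS1) summed to 255 CPM in OE replicate 1 and 42.6 CPM in EV replicate 3, against 6.83 to 8.05 CPM in the other 4 libraries.

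Many of the 10 genes were called between cell lines, and 3 at most between treated cells and their controls with all libraries kept. In the EV libraries, edgeR called 9 of 10 genes between Molm-14 and MV4-11 in the overexpression series, where 64.8% of all tested genes were called. In the knockout series it called 8 between Molm-14 and MV4-11 (background 61.7%), 9 between THP-1 and MV4-11 (67.5%) and 9 between THP-1 and Molm-14 (69.6%). Over 10 genes, these counts lie 3 genes or fewer above what the background shares give, and nothing is read from the counts, which include SPRED1 and SPRY4. The levels below are CPM with TMM-scaled library sizes, and the tables of both series were scaled separately and counted on different annotation releases, so levels are compared within a series only.

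**Figure D1:**
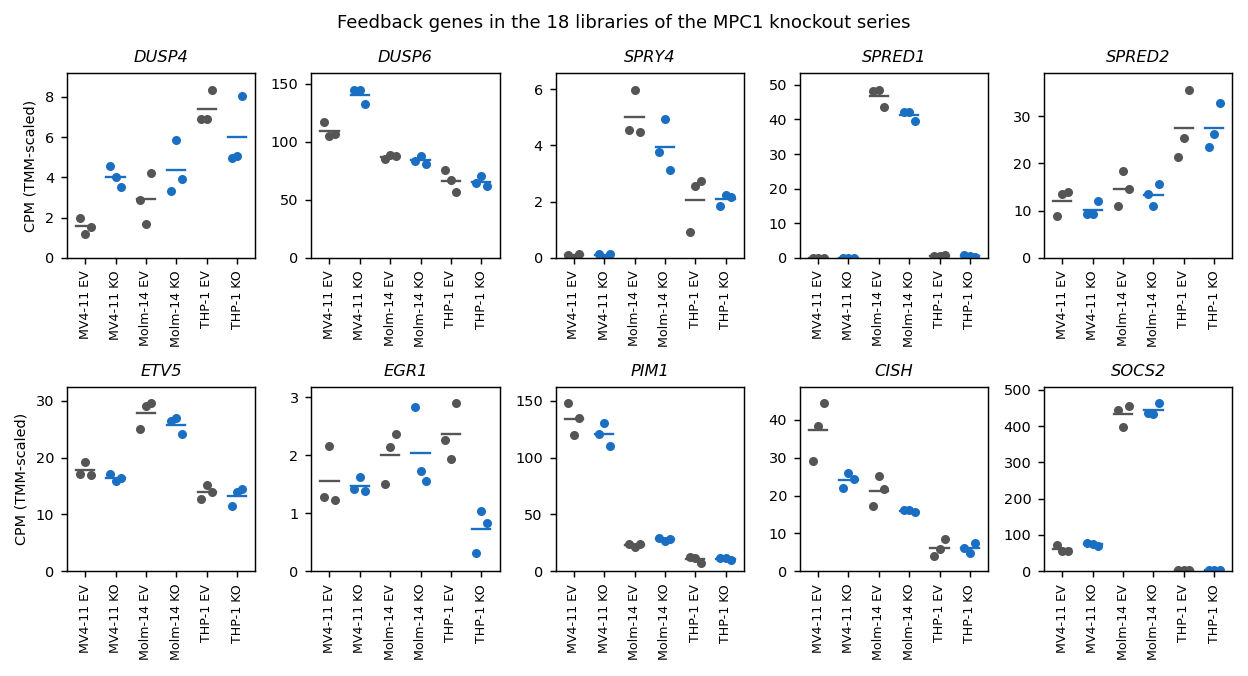
CPM of each gene (vertical axis, from 0) in the 6 groups of the knockout series, with 1 point per library and a line at the mean of 3 libraries, EV in grey and KO in blue. SPRED1 and SPRY4 are at or near 0 in MV4-11, SOCS2 is highest in Molm-14, PIM1 is highest in MV4-11, and DUSP4, DUSP6 and CISH are the genes whose KO and EV libraries separate in MV4-11.

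Of the RAS and RAF inhibitors, SPRED1 and SPRY4 were at or near 0 counts in MV4-11 of the knockout series, and since the lines where they are high kept them in the fit, their gaps are given as a description with no test. SPRED1 (ENSG00000166068, chromosome 15, 38252836 to 38357249, plus strand, GRCh38) had 0 counts in all 6 MV4-11 libraries of the knockout series. In Molm-14 EV it stood at 48.3, 48.5 and 43.5 CPM, at least 101-fold higher than the floor of 3 counts per library in MV4-11 EV. In THP-1 EV it stood at 0.66, 0.60 and 0.72 CPM, from 13 counts in all. In the overexpression series, MV4-11 EV had 1 count in all 3 libraries together and Molm-14 EV had 1780. That ratio was 1970 with a counting interval from 353 to 77850 (exact, 95%). The interval holds counting error of the summed counts only, leaves out the spread between libraries, and is no test of the lines.

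SPRY4 (ENSG00000187678, chromosome 5, 142310427 to 142326455, minus strand) followed the same order of lines. In the knockout series it had 2 counts over the 3 MV4-11 EV libraries, 114 over those of Molm-14 (4.54, 5.96 and 4.48 CPM) and 39 over those of THP-1 (0.93, 2.54 and 2.72 CPM). Molm-14 exceeded MV4-11 by a ratio of 57.3 (exact 95% counting interval 15.5 to 479, which also leaves out the spread between libraries). In the overexpression series, where SPRY4 was counted in all libraries, it stood at 2.32, 1.98 and 4.65 CPM in MV4-11 EV and 13.9, 12.1 and 11.6 CPM in Molm-14 EV (log2 difference 2.09, SE 0.24, edgeR FDR 1.07e-06). SPRED2, the paralog of SPRED1, was measured in all lines and did not share its pattern. In the knockout series SPRED2 was highest in THP-1 EV (21.4, 25.3 and 35.5 CPM), with 8.82, 13.5 and 14.03 CPM in MV4-11 EV and 10.9, 18.3 and 14.5 CPM in Molm-14 EV. THP-1 exceeded MV4-11 with a log2 difference of 1.18 (SE 0.21, edgeR FDR 4.51e-05), while Molm-14 and MV4-11 overlapped (log2 0.31, edgeR FDR 0.242). In the overexpression series SPRED2 was slightly lower in Molm-14 than in MV4-11 (log2 −0.24, SE 0.065, edgeR FDR 0.00257).

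The STAT5 outputs did not share one order of lines either. SOCS2 (ENSG00000120833, chromosome 12, 93569814 to 93583487, plus strand) stood at 445, 396 and 455 CPM in Molm-14 EV, 71.4, 56.1 and 56.1 CPM in MV4-11 EV and 3.46, 3.44 and 2.17 CPM in THP-1 EV of the knockout series. Each gap was far outside the spread of the libraries, with log2 differences of 2.81 (SE 0.10) between Molm-14 and MV4-11, −4.31 (SE 0.16) between THP-1 and MV4-11 and −7.12 (SE 0.15) between THP-1 and Molm-14. PIM1 (ENSG00000137193, chromosome 6, 37170152 to 37175428, plus strand) had the opposite order for the FLT3-mutant lines. It stood at 148, 120 and 135 CPM in MV4-11 EV, 24.2, 20.9 and 24.0 CPM in Molm-14 EV and 12.6, 11.7 and 7.61 CPM in THP-1 EV. The log2 difference of PIM1 between Molm-14 and MV4-11 was −2.55 (SE 0.12, edgeR FDR 1.14e-16) in the knockout series and −3.69 (SE 0.31, edgeR FDR 6.22e-06) in the overexpression series.

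CISH (ENSG00000114737, chromosome 3, 50606489 to 50611774, minus strand), the gene with 4 STAT motifs, was also highest in MV4-11. In the EV libraries of the knockout series it stood at 29.1, 38.5 and 44.4 CPM in MV4-11, 17.2, 25.1 and 21.8 CPM in Molm-14 and 3.99, 5.83 and 8.52 CPM in THP-1. Molm-14 was lower than MV4-11 by a log2 difference of −0.79 (SE 0.17, edgeR FDR 0.000244), and THP-1 by −2.64 (SE 0.20, edgeR FDR 2.18e-11). All 3 STAT5 outputs were lowest in THP-1, the line without the FLT3 duplication. FLT3 itself stood at 726 ± 39.4 CPM in MV4-11 EV, 600 ± 46.8 CPM in Molm-14 EV and 160 ± 13.8 CPM in THP-1 EV (SD, n = 3). STAT5A stood at 31.2 ± 2.06, 33.9 ± 2.13 and 7.25 ± 1.53 CPM, and STAT5B at 60.3 ± 2.90, 63.6 ± 1.99 and 49.0 ± 1.21 CPM in the same order. With 1 line lacking the duplication, the duplication and any other feature of THP-1 cannot be told apart.

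The ERK phosphatases behaved differently from each other. DUSP6 (ENSG00000139318, chromosome 12, 89347235 to 89352501, minus strand) was readily counted in all 3 lines. In the EV libraries of the knockout series it stood at 117, 105 and 107 CPM in MV4-11, 85.6, 88.6 and 87.7 CPM in Molm-14 and 75.9, 67.3 and 56.5 CPM in THP-1. The groups did not overlap, and the log2 differences were −0.33 (SE 0.090, edgeR FDR 0.00241) for Molm-14 and −0.72 (SE 0.092, edgeR FDR 1.19e-07) for THP-1 against MV4-11. In the overexpression series Molm-14 was also lower, by a log2 difference of −0.25 (edgeR FDR 0.0180), and that call was lost without MV4-11 EV replicate 3 (FDR 0.106) or without Molm-14 EV replicate 3 (FDR 0.0714).

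DUSP4 (ENSG00000120875, chromosome 8, 29333064 to 29350684, minus strand) was called in opposite directions between Molm-14 and MV4-11 in the 2 series. SPRED2 also had log2 differences of opposite sign, but passed the test in the overexpression series only. In the overexpression series MV4-11 EV stood at 20.04, 17.5 and 24.8 CPM and Molm-14 EV at 0.69, 0.84 and 1.46 CPM, a log2 difference of −4.36 (SE 0.36, edgeR FDR 2.40e-07). In the knockout series MV4-11 EV stood at 1.97, 1.21 and 1.54 CPM and Molm-14 EV at 2.86, 1.69 and 4.22 CPM, a log2 difference of 0.84 (SE 0.35, edgeR FDR 0.0400) with overlapping groups. The call in the knockout series was lost without MV4-11 EV replicate 2 (FDR 0.134) or 3 (FDR 0.0793), and without Molm-14 EV replicate 1 (FDR 0.0627) or 3 (FDR 0.356). THP-1 EV was the highest group of the knockout series, at 6.92, 6.88 and 8.34 CPM. The MV4-11 EV cells of the 2 series carried different vectors and were sequenced to different depths. Mitochondrial genes held 2.72 to 4.34% of counts in the overexpression libraries and 0.14 to 0.452% in the knockout libraries. The 8 myeloid markers summed to 1131 to 1607 CPM in MV4-11 EV of the overexpression series. In the knockout series, scaled separately, they summed to 6459 to 8006 CPM. These and other differences between the series cannot be told apart.

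The ERK-induced transcription factors were ordered alike in neither case. ETV5 (ENSG00000244405, chromosome 3, 186046314 to 186110318, minus strand) was highest in Molm-14 EV of the knockout series (25.1, 29.0 and 29.5 CPM), with 17.1, 19.3 and 16.96 CPM in MV4-11 EV and 12.6, 15.1 and 13.95 CPM in THP-1 EV. Molm-14 exceeded MV4-11 by a log2 difference of 0.65 (SE 0.12, edgeR FDR 2.47e-05) there and of 0.75 (SE 0.20, edgeR FDR 0.00871) in the overexpression series. THP-1 was lower than MV4-11 by −0.36 (SE 0.13, edgeR FDR 0.0164), and that call was lost without MV4-11 EV replicate 2 (FDR 0.0713), without THP-1 EV replicate 1 (FDR 0.0859) and with DESeq2 (FDR 0.0654). EGR1 (ENSG00000120738, chromosome 5, 138465479 to 138469303, plus strand), an immediate-early gene, was not called between any lines. It stood at 1.23 to 2.90 CPM over the 9 EV libraries of the knockout series. Over the 6 EV libraries of the overexpression series, which were scaled apart from these, it stood at 16.6 to 41.9 CPM.

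Per kilobase of exon, the levels of the 10 genes can be set beside each other within a group. In MV4-11 EV of the knockout series PIM1 was first with a level of 44.3 CPM per kb, followed by DUSP6 with 28.4 and SOCS2 with 9.45 CPM per kb. In Molm-14 EV the first was SOCS2 with 66.7 CPM per kb, followed by DUSP6 with 22.6 and PIM1 with 7.61 CPM per kb. In THP-1 EV the first was DUSP6 with 17.3 CPM per kb, followed by SPRED2 with 4.98 and PIM1 with 3.51 CPM per kb. DUSP6 was thus first or second in each line.

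The first question of the treatment comparisons was whether miR-1 overexpression shifted these outputs. In MV4-11, edgeR called 0 of the 10 genes, where 0.177% of tested genes were called, and DESeq2 also called 0. At an unadjusted p under 0.05 there was 1, DUSP4, where 5.90% of tested genes were under it. Its levels were 12.4, 11.6 and 8.39 CPM in OE replicates 1 to 3 against 20.04, 17.5 and 24.8 CPM in EV. All 3 OE libraries lay below all 3 EV libraries, and DUSP4 was the only one of the 10 genes without overlap, which 9.17% of tested genes showed. The log2 fold change was −0.94 (SE 0.27, 95% interval −1.47 to −0.42) and the edgeR FDR was 0.367. Such intervals use the normal distribution and are narrower than the F test itself would give. The FDR was 8.77e-07 when genes with low counts were kept in the fit (log2 fold change −0.95). It was 0.214 to 0.649 under the other alternatives. DUSP4 was thus called only without the low-count filter, and the cause was not tested.

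**Figure D2:**
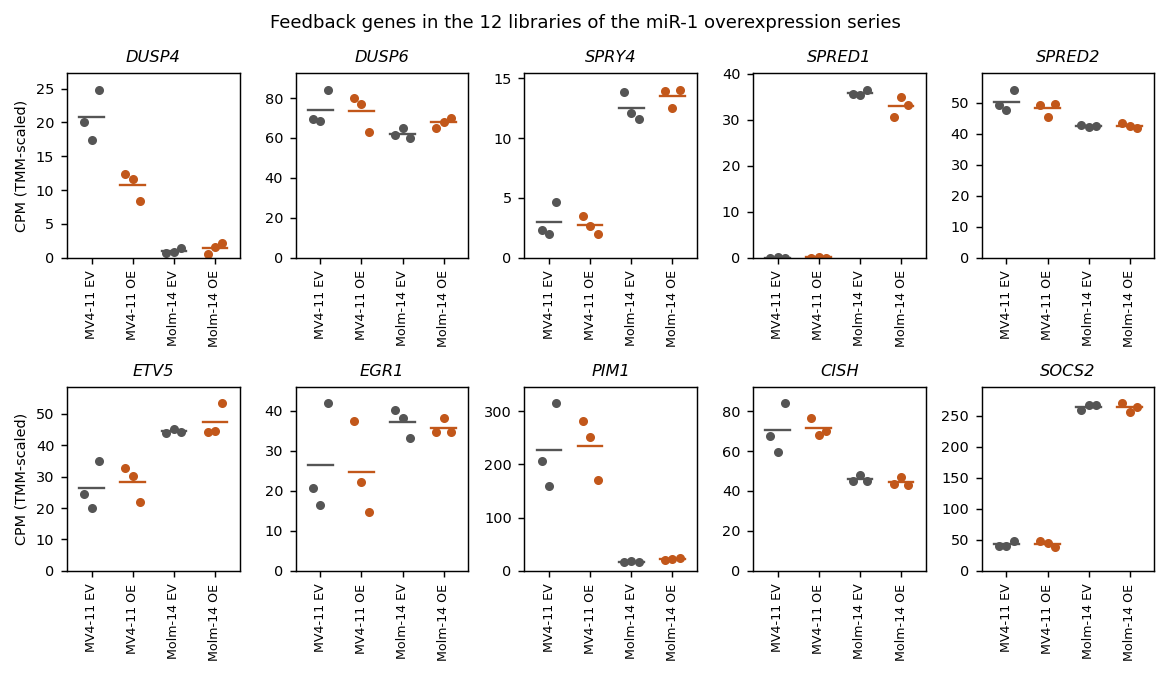
CPM of each gene (vertical axis, from 0) in the 4 groups of the overexpression series, with 1 point per library and a line at the mean of 3 libraries, EV in grey and OE in orange. The MV4-11 libraries of PIM1, ETV5, EGR1 and SPRY4 are spread widely within both EV and OE, and DUSP4 is the gene whose MV4-11 groups do not overlap.

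The other 9 genes overlapped between OE and EV in MV4-11. PIM1 stood at 281, 251 and 171 CPM in OE and at 205, 158 and 315 CPM in EV (log2 0.05, 95% interval −0.45 to 0.55). SPRED2, which holds a miR-1 seed 7mer, stood at 49.3, 45.5 and 49.5 CPM in OE and at 49.3, 47.5 and 54.1 CPM in EV (log2 −0.06, interval −0.19 to 0.06). SPRED1, which holds the 8mer, had 4 counts in the OE libraries and 1 in the EV libraries, so no effect on it could be measured in MV4-11. The intervals of DUSP6 (−0.18 to 0.16), CISH (−0.16 to 0.21) and SOCS2 (−0.13 to 0.17) were narrow, whereas that of EGR1 ran from −0.88 to 0.70.

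Many of the 10 genes shared an order of libraries in MV4-11, including DUSP6, CISH and SOCS2, whose intervals were narrow. EV replicate 3 was the highest and OE replicate 1 the next for DUSP6, SPRY4, ETV5, EGR1, PIM1, CISH and SOCS2, and OE replicate 3 or EV replicate 2 was the lowest for the same 7 genes. EGR1, for instance, stood at 41.9 CPM in EV replicate 3, 37.3 CPM in OE replicate 1, 22.2 CPM in OE replicate 2, 20.7 CPM in EV replicate 1, 16.6 CPM in EV replicate 2 and 14.7 CPM in OE replicate 3. The highest library exceeded the lowest 2.85-fold for EGR1, 2.35-fold for SPRY4, 1.99-fold for PIM1, 1.76-fold for ETV5, 1.41-fold for CISH, 1.33-fold for DUSP6 and 1.26-fold for SOCS2. As a description over the same 6 libraries, the Pearson correlation of log2 CPM with PIM1 was 0.996 for ETV5, 0.955 for SOCS2, 0.953 for SPRY4, 0.941 for DUSP6, 0.941 for EGR1 and 0.852 for CISH, while 5.02% of 9819 genes with a mean of at least 10 CPM reached 0.9.

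DUSP4 (0.319) and SPRED2 (0.427) followed this order least among the genes with more than a few counts. FLT3 and the ERK phosphatase gene DUSP7 also had EV replicate 3 first and OE replicate 1 second. DUSP5 and FOS, ranked as well, had OE replicate 1 first and EV replicate 3 second. These were the libraries in which the 6 interferon-induced genes stood highest, though in the reverse order, and the part of these libraries in the results was not tested. In Molm-14 no such order was seen. PIM1 ranged from 16.6 to 23.4 CPM over the 6 Molm-14 libraries, and its correlation was 0.985 with DUSP6, 0.707 with ETV5 and −0.081 with EGR1. In the knockout series the correlation of ETV5 with PIM1 over 6 libraries was −0.107 in MV4-11, −0.651 in Molm-14 and −0.279 in THP-1. That of DUSP6 was −0.275, −0.785 and 0.919 in the same order, and that of CISH was 0.33, −0.908 and −0.874. Strong values over 6 libraries thus also occurred in other lines, in both directions.

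**Figure D3:**
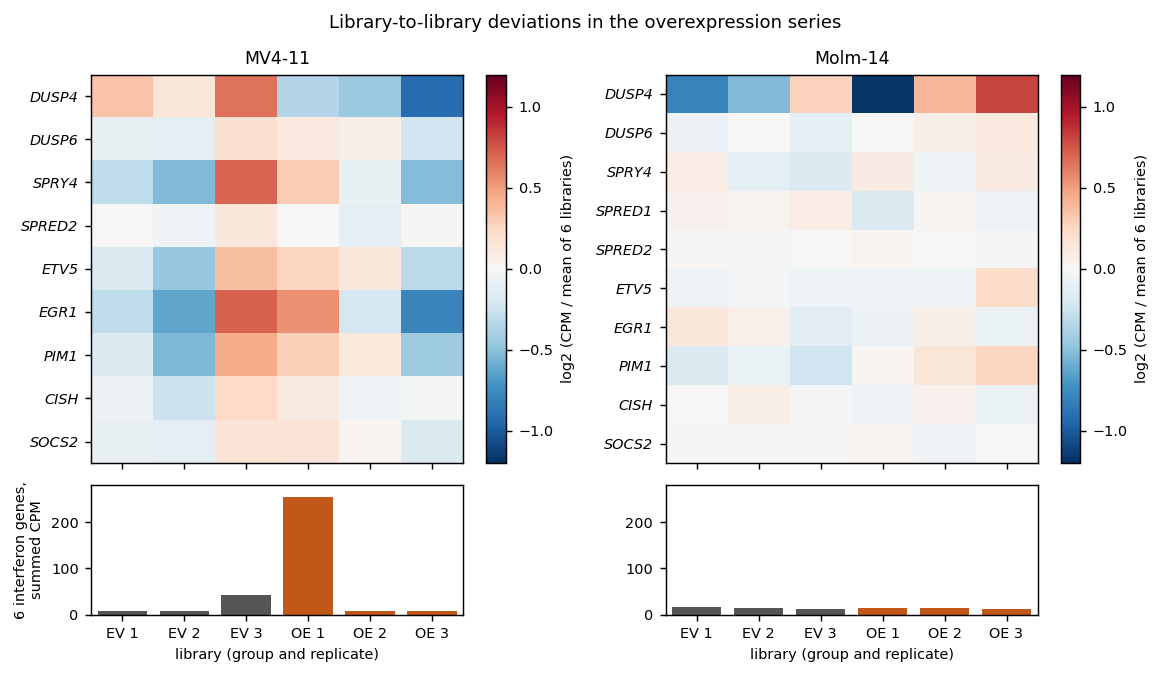
Upper panels show the log2 ratio of each gene's CPM to its mean over the 6 libraries of a line in the overexpression series (red above, blue below), for each library on the horizontal axis, without SPRED1 in MV4-11. Lower panels show the summed CPM of 6 interferon-induced genes in the same libraries. In MV4-11, EV replicate 3 and OE replicate 1 are red for 7 genes, SPRED2 is faint in every library, and DUSP4 splits by group instead.

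In Molm-14, edgeR called 0 of the 10 genes between OE and EV, where 0.00570% of tested genes were called. DESeq2 called 0, and 0 had an unadjusted p under 0.05. PIM1, DUSP6 and SPRED1 did not overlap between the groups, 3 of 10 against 14.9% of tested genes. PIM1 stood at 19.9, 21.7 and 23.4 CPM in OE and 17.3, 18.5 and 16.6 CPM in EV (log2 0.31, SE 0.33, edgeR FDR 1.00). DUSP6 stood at 65.2, 68.0 and 70.3 CPM in OE and 61.7, 64.8 and 59.8 CPM in EV (log2 0.13, SE 0.088). SPRED1, with the seed 8mer and readily counted in this line, stood at 30.5, 34.8 and 33.3 CPM in OE and 35.7, 35.4 and 36.4 CPM in EV. All 3 OE libraries were lower for SPRED1, but the log2 fold change of −0.13 (SE 0.12, 95% interval −0.37 to 0.12) did not pass the test. The interval of SPRED2 was −0.12 to 0.13, that of SOCS2 was −0.14 to 0.13 and that of CISH was −0.24 to 0.14. For the difference of the OE effects between the lines, edgeR called 0 of the 10 genes (background 0.0456%) and DESeq2 called 0. At an unadjusted p under 0.05 there was 1, DUSP4 (log2 1.38, SE 0.54, edgeR FDR 0.893), against 5.30% of tested genes, and it was called when genes with low counts were kept (FDR 0.0154).

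The second question was whether loss of MPC1 shifted the same outputs. In MV4-11, edgeR called 3 of the 10 genes between KO and EV, where 5.41% of tested genes were called. DUSP4 and DUSP6, the ERK phosphatases, rose, and CISH, the STAT5 target, fell. The 10 include SPRED1, with 0 counts in both groups, and SPRY4, with 2 counts in each group, for which no change could be measured. The median log2 fold change over the 10 genes was −0.05, against 0.02 over all tested genes. It includes these 2 genes, and nothing is read from it. The 3 called genes were those without overlap between the groups, as were 24.1% of tested genes.

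DUSP6 stood at 145, 145 and 132 CPM in KO and 117, 105 and 107 CPM in EV. The KO libraries were all higher, and the log2 fold change was 0.36 (SE 0.088, edgeR FDR 0.0178), a rise of 28.1%. DUSP4 stood at 4.55, 4.01 and 3.52 CPM in KO and 1.97, 1.21 and 1.54 CPM in EV, from 92 and 36 counts in all. Its log2 fold change was 1.32 (SE 0.33, edgeR FDR 0.0185), and DESeq2 called DUSP6 and CISH but gave DUSP4, EGR1 and SPRY4 no adjusted p. CISH stood at 21.9, 25.9 and 24.3 CPM in KO and 29.1, 38.5 and 44.4 CPM in EV. The KO libraries were all lower, by a log2 difference of −0.63 (SE 0.17, edgeR FDR 0.0289), a change of −35.2%.

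Each of these 3 calls depended on single libraries. None of them passed without EV replicate 2, without EV replicate 3, without KO replicate 1 or without KO replicate 2 (edgeR FDR 0.0537 to 0.201), and without KO replicate 3 DUSP4 and DUSP6 passed but CISH did not (FDR 0.0531). Without EV replicate 1 all 3 passed, and SOCS2 was called too. The same settings changed the calls over all genes, from 784 to 133 without EV replicate 3. SOCS2 stood at 77.7, 75.4 and 68.8 CPM in KO and 71.4, 56.1 and 56.1 CPM in EV with all libraries (log2 0.27, SE 0.10, FDR 0.118), with 1 EV library inside the range of KO. The other STAT5 output, PIM1, stood at 120, 131 and 110 CPM in KO and 148, 120 and 135 CPM in EV (log2 −0.16, FDR 0.387). The STAT5 outputs thus had values in different directions, with CISH the only one called.

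**Figure D4:**
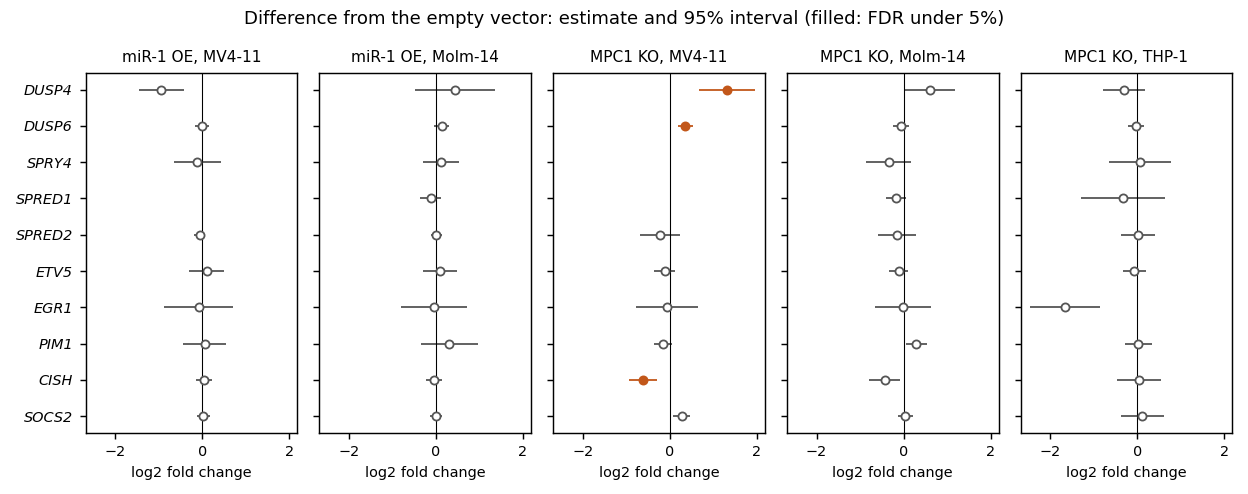
Log2 fold change from the empty vector (horizontal axis) with its 95% interval for each gene in the 5 treatment comparisons, filled where the edgeR FDR is under 5%. Genes with at most 4 counts summed over each group compared are left out (SPRED1 in both MV4-11 comparisons and SPRY4 in MV4-11 KO), and the filled points are DUSP4, DUSP6 and CISH in MV4-11 KO.

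In Molm-14, edgeR called 0 of the 10 genes between KO and EV, where 2.40% of tested genes were called, and DESeq2 called 0. CISH, PIM1 and DUSP4 had an unadjusted p under 0.05, as did 10.7% of tested genes. CISH stood at 16.1, 16.2 and 15.6 CPM in KO and 17.2, 25.1 and 21.8 CPM in EV (log2 −0.43, SE 0.18, edgeR FDR 0.350). PIM1 stood at 29.0, 26.7 and 28.8 CPM in KO and 24.2, 20.9 and 24.0 CPM in EV (log2 0.29, SE 0.13, edgeR FDR 0.356). DUSP4 stood at 3.31, 5.85 and 3.91 CPM in KO and 2.86, 1.69 and 4.22 CPM in EV (log2 0.62, SE 0.29, edgeR FDR 0.447). The groups did not overlap for CISH, PIM1 and SPRED1, 3 of 10 against 16.4% of tested genes. SPRED1 stood at 42.2, 42.0 and 39.7 CPM in KO and 48.3, 48.5 and 43.5 CPM in EV (log2 −0.18, SE 0.12, edgeR FDR 0.675). SOCS2, at 437, 434 and 463 CPM in KO and 445, 396 and 455 CPM in EV, had a log2 fold change of 0.04 with a 95% interval from −0.14 to 0.22.

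In THP-1, edgeR called 0 of the 10 genes, where 0.0897% of tested genes were called, and DESeq2 called 0 while giving EGR1, DUSP4 and SPRY4 no adjusted p. EGR1 was the gene with an unadjusted p under 0.05 (8.01% of tested genes) and the one without overlap (13.6% of tested genes). It stood at 0.31, 1.04 and 0.84 CPM in KO and 2.26, 1.94 and 2.90 CPM in EV, from 14 and 46 counts in all. The log2 fold change of EGR1 was −1.66 (SE 0.41, 95% interval −2.47 to −0.85, edgeR FDR 0.181). DUSP4 had a log2 fold change of −0.30 (edgeR FDR 0.789), SOCS2 one of 0.11 and SPRED1, with few counts, one of −0.33. DUSP6, PIM1, CISH, SPRED2, ETV5 and SPRY4 had log2 fold changes between −0.07 and 0.06 in THP-1. Among these, the interval was −0.21 to 0.16 for DUSP6, −0.29 to 0.34 for PIM1 and −0.46 to 0.54 for CISH.

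A call in MV4-11 and none elsewhere does not show a difference between lines, so the difference of the KO effects was tested. Between Molm-14 and MV4-11 edgeR called 0 of the 10 genes (background 1.48%), and DUSP6 (log2 −0.41, SE 0.13, FDR 0.103) and PIM1 (log2 0.45, SE 0.16, FDR 0.179) had an unadjusted p under 0.05, as did 14.2% of tested genes. Between THP-1 and MV4-11 it called 0 (background 0.193%), with 4 at an unadjusted p under 0.05 against 9.05% of tested genes. Of these, DUSP4 had a difference of −1.62 (SE 0.41, FDR 0.123, and 0.0122 when genes with low counts were kept) and EGR1 one of −1.59 (SE 0.56, FDR 0.358). DUSP6 had one of −0.38 (SE 0.13, FDR 0.329) and CISH one of 0.67 (SE 0.31, FDR 0.524). Between THP-1 and Molm-14 it called 0 (background 0.766%), with EGR1 and DUSP4 at an unadjusted p under 0.05 against 7.80% of tested genes. These 3 differences share libraries. In those with MV4-11, no effect on SPRED1 or SPRY4 could be measured. DESeq2 called 0 in each, but gave EGR1, DUSP4 and SPRY4 no adjusted p in both differences with MV4-11.

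Other genes of the same pathways gave few calls. Of 19 other MAPK outputs, such as DUSP5, SPRY2, ETV4 and CCND1, 18 were tested for OE and 15 for KO, and edgeR called 0 in each of the 5 treatment comparisons. The number with an unadjusted p under 0.05 was 1 and 0 for OE in MV4-11 and Molm-14, and 5, 1 and 5 for KO in MV4-11, Molm-14 and THP-1. Over all tested genes the shares under it were 5.90%, 4.38%, 22.3%, 10.7% and 8.01% in this order. DESeq2 called CCND1 for OE in MV4-11 and MYC for KO in MV4-11, and 0 of the list in the others. Of 12 other STAT5 targets, all tested in both series, edgeR also called 0, with 2, 2, 2, 3 and 1 at an unadjusted p under 0.05 in the same order, and DESeq2 called CCND2 for KO in MV4-11 and 0 elsewhere. Of 10 immediate-early genes, 9 and 8 were tested, and 1 was called by edgeR and by DESeq2, FOS, a subunit of AP-1, which rose in Molm-14 KO (13.7 ± 0.44 against 7.22 ± 0.62 CPM, SD, n = 3, log2 0.91, SE 0.14, edgeR FDR 0.000216). In Molm-14 KO edgeR called 2.40% of all tested genes. DESeq2 gave many listed genes no adjusted p, so its counts of 0 do not cover them. For KO in MV4-11 these were 7 other MAPK outputs, 4 other STAT5 targets and 3 immediate-early genes. For KO in THP-1 they were 10, 7 and 5 in this order. The same held for 2 other MAPK outputs for OE in MV4-11 and 1 immediate-early gene for KO in Molm-14.

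In the core of the pathway, from FLT3 through RAS, RAF, MEK, ERK and JAK2 to STAT5, 28 genes were listed and 28 and 27 were tested. In MV4-11 KO the adaptor GAB2 fell (66.8 ± 7.01 against 87.2 ± 8.46 CPM, log2 −0.38, SE 0.098, edgeR FDR 0.0233) and the ERK-activated kinase RPS6KA3 rose (276 ± 21.4 against 227 ± 15.6 CPM, log2 0.28, SE 0.083, edgeR FDR 0.0442). In that comparison edgeR called 5.41% of all tested genes. Over 11 alternatives, the GAB2 call was lost in 4 and the RPS6KA3 call in 8. The GAB2 call was lost without EV replicate 2 (FDR 0.125), EV replicate 3 (FDR 0.102) or KO replicate 1 (FDR 0.183) and with only the compared libraries (FDR 0.0531). The RPS6KA3 call was lost without any of these (FDR 0.0623, 0.146 and 0.235), without EV replicate 1 (FDR 0.0992) and without KO replicate 3 (FDR 0.0867), and also with RLE scaling (FDR 0.0561), the replicate block (FDR 0.0511) and only the compared libraries (FDR 0.127). No other core gene was called by edgeR or DESeq2 in the treatment comparisons, but DESeq2 gave 2 core genes no adjusted p in THP-1 KO. FLT3 stood at 848 ± 34.9 CPM in MV4-11 KO against 726 ± 39.4 CPM in EV, 650 ± 31.3 against 600 ± 46.8 CPM in Molm-14 and 140 ± 14.7 against 160 ± 13.8 CPM in THP-1, with edgeR FDRs of 0.112, 0.717 and 0.588. In the overexpression series FLT3 stood at 488 ± 49.0 CPM in MV4-11 OE against 494 ± 58.6 CPM in EV and at 303 ± 5.002 against 296 ± 5.90 CPM in Molm-14. STAT5A and STAT5B were not called in any treatment comparison.

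Of 8 myeloid markers, edgeR called 2 in MV4-11 KO, 2 in Molm-14 KO, 0 in THP-1 KO (3 at an unadjusted p under 0.05, 0 by DESeq2) and 0 for OE in either line (1 at an unadjusted p under 0.05 in each, 0 by DESeq2). Over all tested genes, edgeR called 5.41%, 2.40% and 0.0897% in these KO comparisons and 0.177% and 0.00570% for OE in MV4-11 and Molm-14. An unadjusted p under 0.05 was reached by 8.01% in THP-1 KO, and by 5.90% and 4.38% for OE in MV4-11 and Molm-14. DESeq2 gave 1 myeloid marker no adjusted p in MV4-11 KO and 1 in THP-1 KO. In MV4-11 KO the myeloid factor SPI1 fell (log2 −0.46, edgeR FDR 0.0486) and the leukocyte marker PTPRC rose (log2 0.27, edgeR FDR 0.0422), and both calls were lost when any MV4-11 library other than EV replicate 1 was left out (edgeR FDR 0.0543 to 0.273 for SPI1 and 0.0506 to 0.251 for PTPRC). In Molm-14 KO the granule gene MPO fell (39.7 ± 3.28 against 85.9 ± 6.35 CPM, log2 −1.11, edgeR FDR 3.41e-08) and the lysozyme gene LYZ rose (626 ± 1.62 against 321 ± 32.1 CPM, log2 0.96, edgeR FDR 8.32e-07). The 8 markers summed to 1146 to 1153 CPM in Molm-14 KO and 822 to 891 CPM in EV, to 1606 to 1781 CPM in THP-1 KO and 1368 to 1599 CPM in EV, and to 601 to 624 CPM in Molm-14 OE and 552 to 563 CPM in EV. The sums overlapped between the groups in MV4-11 of both series. Their part in the values of the 10 genes was not tested, and in bulk RNA fewer cells of a state and less RNA per cell cannot be told apart.

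As a description of which genes varied most like each of the 10, log2 CPM was correlated over the 18 libraries of the knockout series with every tested gene of at least 10 CPM on average. Because the libraries fall into 3 lines, such values mostly reflect the order of lines. The closest were JAG1 for SPRED1 (r = 0.996, and 0.995 over the 12 libraries of the overexpression series), COX15 for SOCS2 (0.996 and 0.976), CAPNS1 for PIM1 (0.988 and 0.984) and ANKRD33B for SPRY4 (0.978 and 0.965). For DUSP6 it was ATXN3 (0.977 and 0.519), for CISH it was GPI (0.974 and 0.898), for ETV5 it was SLC25A37 (0.973 and 0.855) and for SPRED2 it was FAM120B (0.969 and −0.872). Between 170 and 1043 genes exceeded 0.9 for each of these 8 genes. For DUSP4 (RHOC, 0.870 and 0.763) and EGR1 (CCDC93, 0.736 and 0.653) no gene exceeded 0.9.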

How the data were processed

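RNA was sequenced from 30 libraries, 12 for miR-1 overexpression and 18 for MPC1 knockout. The authors prepared stranded, ribosomal RNA-depleted libraries, removed optical duplicates, trimmed reads, aligned them to GRCh38 with STAR 2.7.6a and counted reads per gene with featureCounts 1.6.3. The deposited values are raw counts, 1 table per series, with 1 column per library and replicates not pooled. Whether counting used the strand is not given in the sources used here, so overlapping genes may share reads.

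The labels do not say whether replicates were separate cultures, so p-values measure the spread between these libraries, which may be technical. All replicate pairs differed by more than sampling noise (chi-square per degree of freedom 1.50 to 15.8).

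Genes were filtered with filterByExpr, scaled with TMM and fitted with edgeR 4.0.16 (R 4.3.3, robust quasi-likelihood test). Each series was fitted once with its groups as coefficients. Benjamini-Hochberg adjustment covered all tested genes, and an FDR under 5% was called. Alternatives were RLE scaling, no low-count filter beyond 1 count, DESeq2 1.42.0, only the compared libraries, a replicate block, and leaving out each library. The scripts were tested on simulated counts. Symbols and coordinates are from GENCODE release 44 (60419 of 60675 and 56948 of 58051 gene IDs matched).

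The 10 genes and the other lists were chosen with earlier results of these data known. Named genes are the 10 genes, MPC1, MIR133A1HG, FLT3, STAT5A and STAT5B, list members called in a treatment comparison, and the genes closest in pattern.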

Additional observations from a re-analysis of the deposited data

Results flagged for a closer look

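None of the 10 feedback genes was called by edgeR for a difference of the OE or KO effect between cell lines, except DUSP4 when genes with low counts were kept (FDR 0.0154 for the OE effects and 0.0122 for the KO effects in THP-1 and MV4-11). For the other lists, 2 genes were called. The KO effect on FOS was larger in Molm-14 than in MV4-11 by 1.05 on the log2 scale (SE 0.19, edgeR FDR 0.00208), and the effect in THP-1 was lower than in Molm-14 by a log2 difference of −1.06 (SE 0.18, edgeR FDR 0.00225). Mean FOS in KO and EV was 13.7 and 7.22 CPM in Molm-14, 21.7 and 23.8 CPM in MV4-11 and 28.2 and 31.2 CPM in THP-1. The KO effect on LYZ was larger in Molm-14 than in MV4-11 by 1.02 (SE 0.14, edgeR FDR 0.00016), and the effect in THP-1 was lower than in Molm-14 by a log2 difference of −0.70 (SE 0.15, edgeR FDR 0.0121). Mean LYZ in KO and EV was 626 and 321 CPM in Molm-14, 6313 and 6573 CPM in MV4-11 and 950 and 790 CPM in THP-1. These differences share the Molm-14 libraries.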

How the results depend on the processing

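Over 491 alternatives of 48 single-gene results, 440 were counted as keeping the direction and the side of the threshold, 50 kept the direction and no longer passed, 1 came to pass and 0 reversed. The 440 include DESeq2 for DUSP4 in MV4-11 KO and for EGR1 in THP-1 KO, where it gave no adjusted p. The number of the 10 genes called rose from 0 to 1 without the low-count filter for OE in MV4-11, for the difference of OE effects and for the KO difference between THP-1 and MV4-11. DUSP4 was that gene each time, and the cause was not tested. Leaving out 1 library gave 0 to 4 called genes for KO in MV4-11 (3 with all libraries). Between the EV groups of the overexpression series it gave 8 to 9. Between those of the knockout series it gave 7 to 8 for Molm-14 against MV4-11, 8 to 9 for THP-1 against MV4-11 and 9 for THP-1 against Molm-14. It gave 0 in every other comparison.

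Replicate numbers were not taken as pairs in the main fit. The correlation of same-numbered deviations ran from −0.377 to 0.330 and exceeded 0.1 for every pair in no line. In THP-1 it was 0.179, 0.0987 and 0.330, against −0.262 to 0.145 for pairs of unlike number. Pairing in that line is therefore not settled. With a replicate block, the 10 genes gave 3 calls for KO in MV4-11 and 0 in every other treatment comparison, as without it. Over all genes, calls for OE in MV4-11 went from 31 to between 9 (only the compared libraries) and 123 (no filter), with 68 by DESeq2 and 15 with the block. For OE in Molm-14 they went from 1 to 195 with only the compared libraries, 5 by DESeq2, 7 with no filter and 2 with the block. For KO the ranges were 133 to 1474 around 784 in MV4-11, where 1474 is with the block, 183 to 412 around 348 in Molm-14 and 3 to 30 around 13 in THP-1. For the differences they were 2 to 33 around 8 (OE), 105 to 388 around 215 (Molm-14 and MV4-11), 18 to 80 around 28 (THP-1 and MV4-11) and 78 to 159 around 111 (THP-1 and Molm-14). Low counts limit SPRED1 in MV4-11 and THP-1, and SPRY4 in MV4-11 of the knockout series. They also limit EGR1 and DUSP4 in the knockout series.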
